A study of Homo sapiens with 7 samples.

Results

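Cells keep free zinc very low with a small set of membrane carriers and buffer proteins. The SLC30A family (ZnT) moves zinc out of the cytosol, to the outside or into organelles, and the SLC39A family (ZIP) moves it into the cytosol. Metallothioneins are short cysteine-rich proteins that bind zinc and copper, and MTF1 is the zinc-sensing transcription factor that is known to switch on metallothionein genes and the exporter gene SLC30A1 when zinc rises. The members described here were chosen by name: every row of the count table that is SLC30A or SLC39A followed by a number, 9 metallothionein rows and MTF1. They come to 34 of 60591 rows, namely 10 exporters, 14 importers, 9 metallothioneins and MTF1. Of the 34 rows, 24 passed the filter on low counts and 10 did not, and those 10 are given by their counts.

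TE11, the line used, is of human origin and is labelled as a squamous carcinoma of the esophagus. The 4 diclofenac libraries were from cells given 200 µM diclofenac, a nonsteroidal anti-inflammatory drug, and the 3 vehicle libraries were from cells given 0.07% DMSO, its solvent, both for 48 h. The DMSO content of the diclofenac cultures is not given. All cells were grown in the same serum-containing medium, and no other agent or genetic change is named. Total counts ran from 19878696 to 24985098 under diclofenac and from 22364064 to 26490829 under vehicle. Nothing in the labels says that libraries of a group were separate cultures, so every p-value here reflects the spread among these libraries alone, which may be technical. Of 11 squamous markers 3 passed the filter, and KRT5, KRT6A and TP63 had 1, 0 and 5 counts over all diclofenac libraries and 0, 0 and 2 over all vehicle libraries. The 3 that passed, SFN, EPCAM and CDH1, were weak. They had 362, 284 and 292 counts over all diclofenac libraries and 122, 136 and 163 over all vehicle libraries. The mesenchymal marker VIM had 64883 and 47703. These markers therefore do not by themselves bear out the squamous label. None of 4 blood or 3 endothelial markers passed the filter. Of the epithelial and mesenchymal markers that did, SFN and EPCAM were called higher and COL1A1 lower under diclofenac (log2 fold changes 1.03, 0.53 and -0.44). CDH1 (0.31), VIM (-0.09), COL3A1 (0.36) and PDGFRB (0.38) were not called, so the mesenchymal markers had no common direction. The part of these shifts in the results below was not tested. In bulk RNA, fewer cells of a type and less RNA per cell cannot be told apart.

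Under diclofenac the exporter transcripts were mostly higher, the importer transcripts went both ways, and the expressed metallothioneins were slightly lower or not called. Of 8 tested exporters 6 rose and 1 fell, of 12 tested importers 3 rose and 3 fell, and of 3 tested metallothioneins 2 fell. Over all 18311 tested genes, 59.7% were called at an adjusted p under 0.05 by edgeR's quasi-likelihood test, 30.2% higher and 29.5% lower. The 13 called of 20 tested transporters are near the share of all genes, as are the 13 of 24 tested members whose groups did not overlap in either direction, against 58.5% of all tested genes. The median log2 fold change was 0.20 for the exporters, -8.15e-05 for the importers and -0.24 for the metallothioneins, beside 0.02 for all tested genes. Most changes were small: 2 of the 24 tested members, SLC30A6 and SLC39A5, were called with at least a 1.5-fold change, against 19.5% of all tested genes. SLC39A5 had few counts and passed the filter through those of the diclofenac libraries. All fold changes below are diclofenac over vehicle, on TMM-scaled libraries, and normalized CPM is the count divided by the TMM-scaled library size (the usual CPM scale).

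**Figure D1:**
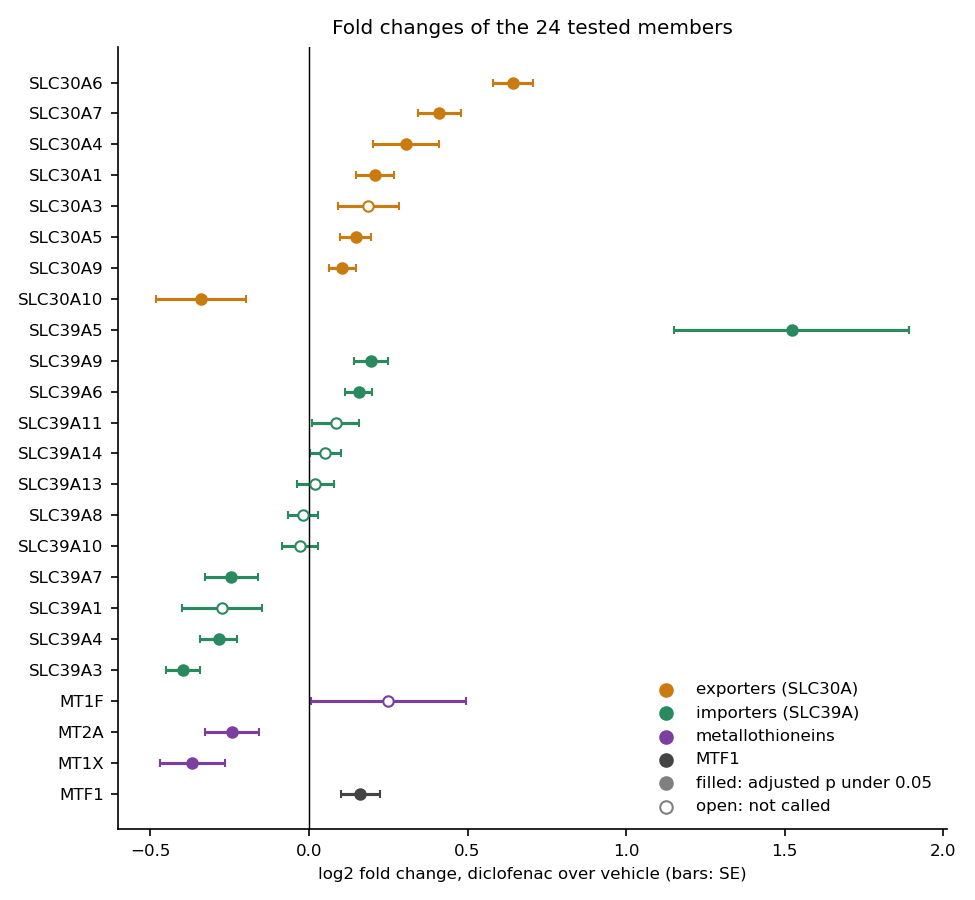
Log2 fold change (diclofenac over vehicle, horizontal axis) of the 24 tested members, with bars of 1 SE and filled points for an adjusted p under 0.05. SLC30A6 at 0.64 leads the exporters, SLC39A5 at 1.52 has the widest bar, and SLC39A3 at -0.40 is the lowest importer.

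The start regions of 4 genes are shown because they carry the short DNA element through which MTF1 is known to act, in 2 expressed metallothioneins, in a metallothionein without a single count and in the zinc-regulated exporter. Each runs from 250 bases before to 50 bases after the gene's start in RefSeq (GRCh38.p14), 5′ to 3′ on the gene's strand, with matches to the metal response element core in capitals. The motif was searched as TGCACNC or TGCGCNC on both strands.
MT2A, chr16:56608334-56608633, plus strand: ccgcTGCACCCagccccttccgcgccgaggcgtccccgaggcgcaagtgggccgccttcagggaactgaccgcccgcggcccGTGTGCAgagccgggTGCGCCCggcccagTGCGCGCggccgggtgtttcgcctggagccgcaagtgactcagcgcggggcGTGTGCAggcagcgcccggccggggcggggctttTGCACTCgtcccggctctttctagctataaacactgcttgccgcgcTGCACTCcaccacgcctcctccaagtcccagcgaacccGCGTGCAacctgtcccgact
MT1X, chr16:56682220-56682519, plus strand: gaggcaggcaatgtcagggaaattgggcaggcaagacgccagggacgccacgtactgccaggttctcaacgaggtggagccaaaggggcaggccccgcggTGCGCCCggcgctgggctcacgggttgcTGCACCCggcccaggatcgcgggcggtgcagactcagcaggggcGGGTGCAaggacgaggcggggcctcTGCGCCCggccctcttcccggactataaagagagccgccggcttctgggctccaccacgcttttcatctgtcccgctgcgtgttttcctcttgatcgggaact
MT1H, chr16:56669564-56669863, plus strand: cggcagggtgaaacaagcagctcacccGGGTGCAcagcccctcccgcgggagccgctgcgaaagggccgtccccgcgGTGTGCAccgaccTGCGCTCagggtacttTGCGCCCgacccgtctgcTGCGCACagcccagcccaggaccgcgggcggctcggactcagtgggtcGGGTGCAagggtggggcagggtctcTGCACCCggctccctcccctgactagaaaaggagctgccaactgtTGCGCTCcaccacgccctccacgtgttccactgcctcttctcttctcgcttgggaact
SLC30A1, chr1:211579112-211579411, minus strand: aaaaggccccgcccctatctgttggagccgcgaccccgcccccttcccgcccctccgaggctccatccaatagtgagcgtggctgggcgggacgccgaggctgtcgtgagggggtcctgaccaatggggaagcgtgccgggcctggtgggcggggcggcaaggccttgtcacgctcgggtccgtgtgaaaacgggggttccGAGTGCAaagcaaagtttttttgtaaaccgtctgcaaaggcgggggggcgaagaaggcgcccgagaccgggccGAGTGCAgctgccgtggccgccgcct

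The motif occurred at 8 positions in the MT2A window, 8 in that of MT1H, 4 in that of MT1X and 2 in that of SLC30A1. Of 35116 RefSeq start regions of the same length, 29.6% held at least 1 match, 8.60% at least 2, 0.601% at least 4 and 0.0199% at least 8. MT1H, with as many matches as MT2A, had no count in any library. Among the other exporters, SLC30A2, with 4 counts under diclofenac and 0 under vehicle, held 3 matches. SLC30A3, which was not called, held 2 and 1 at its separate starts. The windows of SLC30A6 and SLC39A3 held 1 match each, and those of SLC30A5, SLC30A7, SLC30A9, SLC30A10 and MTF1 held none. In all, 25 of the 34 members had a start region in the table. Among the metallothioneins these were only MT2A, MT1X and MT1H, so MT1A, MT1E, MT1F, MT1G, MT1M and MT3 could not be compared. A match is a description of letters and says nothing about binding in these cells.

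MTF1 transcripts rose slightly. MTF1 stood at 22.8, 23.5, 23.1 and 25.0 normalized CPM in the diclofenac libraries, against 20.7, 22.0 and 20.6 in the vehicle libraries. All 4 diclofenac libraries lay above all vehicle libraries, by a small margin. The log2 fold change was 0.16 (SE 0.0599, edgeR adjusted p = 0.0264). The call was lost in 6 of 15 alternatives, which changed the scaling, tool or filter, added a replicate block or left out 1 library and, here and for the genes below, do not count the 1.5-fold minimum. With DESeq2's Wald test the adjusted p was 0.0897, and without diclofenac replicate 4, vehicle replicate 1 or vehicle replicate 3 it was 0.0802, 0.0995 and 0.0987.

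MT2A, the most abundant metallothionein of many human cells, had 331, 423, 545 and 471 counts in the diclofenac libraries, against 559, 433 and 456 in the vehicle libraries. In normalized CPM these were 15.5, 16.7, 21.0 and 18.9 under diclofenac and 22.7, 21.1 and 20.4 under vehicle. Diclofenac replicate 3 fell inside the vehicle range and the other 3 diclofenac libraries lay below it. MT2A fell by 0.24 on the log2 scale (SE 0.0853, edgeR adjusted p = 0.0209). The call rested on the scaling and on single libraries: the log2 fold change was -0.06 with an adjusted p of 0.521 by total counts alone and -0.15 with an adjusted p of 0.125 by upper-quartile factors. It was lost without diclofenac replicate 1 (adjusted p = 0.0628), diclofenac replicate 2 (adjusted p = 0.0700) or vehicle replicate 1 (adjusted p = 0.0980).

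MT1X had 5.45, 5.45, 5.02 and 4.90 normalized CPM in the diclofenac libraries, against 6.01, 7.06 and 7.11 in the vehicle libraries. Every diclofenac library was below every vehicle library. MT1X fell by 0.37 on the log2 scale (SE 0.103, edgeR adjusted p = 0.00498), a call lost by total counts alone (log2 fold change -0.19, adjusted p = 0.130). MT1F stood at 1.22, 1.22, 2.04 and 2.37 normalized CPM under diclofenac and at 1.30, 1.85 and 1.25 under vehicle. Its diclofenac libraries fell into a low and a high pair around the vehicle values, and the gene was not called (log2 fold change 0.25, SE 0.244, edgeR adjusted p = 0.392).

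The other 6 metallothionein rows were at or near 0 in every library. MT1A, MT1H, MT1M and MT3, the brain form, had no count in any library, which at these depths allows up to 3 counts, or 0.113 to 0.151 CPM, by counting error alone. MT1E had 1 count over all diclofenac libraries and 1 over all vehicle libraries, and MT1G had 1 count under diclofenac and 0 under vehicle. Rows of the family outside the named 9, mainly pseudogenes, were also weak: MT1P1 had 27 and 35 counts, MT1XP1 33 and 35, MT2P1 11 and 13 and MT1HL1 6 and 0 over the diclofenac and vehicle libraries in turn, and the remaining 6 rows had none. Summed over the 9 rows, metallothioneins came to 22.3, 23.4, 28.1 and 26.2 normalized CPM in the diclofenac libraries, against 30.1, 30.0 and 28.7 in the vehicle libraries. MT2A made up 72.1% of the summed counts under diclofenac and 72.3% under vehicle, MT1X 21.1% and 22.8%, and MT1F 6.76% and 4.95%. The shares of MT2A and MT1X were thus close in both groups. The mean share of MT1F was higher under diclofenac, where its libraries were spread.

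**Figure D2:**
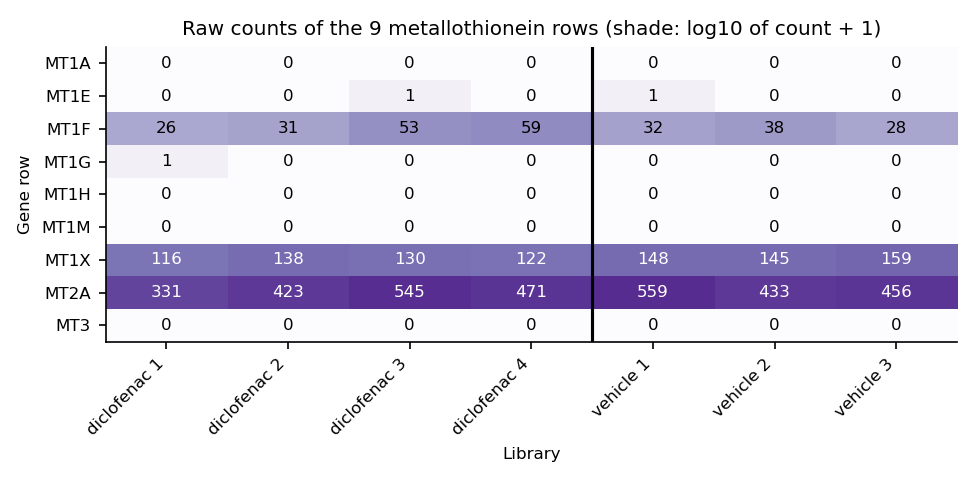
Raw counts of the 9 metallothionein rows (vertical axis) in each library (horizontal axis), diclofenac libraries left of the black line and vehicle libraries right of it, with shade for log10 of the count plus 1. MT2A, MT1X and MT1F carry nearly all counts, and MT1A, MT1H, MT1M and MT3 are at 0 in all 7 libraries.

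The metallothionein paralogs are alike in sequence, and the counting may have dropped or split reads that match several of them. In the GENCODE 29 transcripts, the share of 50-base stretches also found in a transcript of another gene was 16.5% for MT1G, 15.8% for MT1H, 9.87% for MT1M, 7.10% for MT1E and 5.76% for MT1A. It was 18.3% for MT1X, 3.02% for MT2A and 1.22% for MT1F. The gene sharing the most stretches with MT1X was AC026461.1, which overlaps 18.1% of the MT1X exon bases on the same strand. The MT1X share is therefore not a measure of paralogs alone. The AC026461.1 row had 0 counts in both groups, and the level of MT1X may be undercounted. For MT3 the share of such stretches was 0, so most stretches of every metallothionein row, including the rows at 0, were its own. Per length, MT2A was at 13.9 ± 1.87 CPM per kb under diclofenac and 16.5 ± 0.918 under vehicle (SD, n = 4 and 3). MT1X was at 2.93 ± 0.163 and 3.79 ± 0.349 CPM per kb, and MT1F at 0.908 ± 0.309 and 0.777 ± 0.176, in the same order of groups.

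SLC30A6 and SLC30A7 had the largest changes among the tested exporters. SLC30A6, which forms a heterodimer with SLC30A5 and supplies zinc to secretory enzymes such as alkaline phosphatase, had 54.6, 51.3, 46.8 and 49.2 normalized CPM in the diclofenac libraries, against 30.7, 30.9 and 35.2 in the vehicle libraries. The lowest diclofenac library was well above the highest vehicle library. SLC30A6 rose 1.56-fold (log2 fold change 0.64, SE 0.0627, edgeR adjusted p = 1.08e-07), and the call held in all 15 alternatives with log2 fold changes of 0.60 to 0.83. SLC30A7, which brings zinc into Golgi vesicles, had 33.0, 31.0, 30.1 and 32.5 normalized CPM under diclofenac and 23.2, 21.4 and 26.6 under vehicle. The groups did not overlap, and SLC30A7 rose 1.33-fold (log2 fold change 0.41, SE 0.0681, edgeR adjusted p = 5.08e-05). SLC30A5, the partner of SLC30A6, rose less, to 101 ± 4.80 normalized CPM under diclofenac against 91.5 ± 4.18 under vehicle (log2 fold change 0.15, SE 0.0491, edgeR adjusted p = 0.0155), and its call was lost without vehicle replicate 2 (adjusted p = 0.123).

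SLC30A1, a plasma membrane exporter and a known transporter target of MTF1, rose a little. It had 32.8, 31.2, 27.9 and 29.7 normalized CPM in the diclofenac libraries, against 27.1, 26.0 and 25.6 in the vehicle libraries, with no overlap. The log2 fold change was 0.21 (SE 0.0609, edgeR adjusted p = 0.00666), and the call held in all 15 alternatives. SLC30A9, known for zinc export from mitochondria, rose by a margin close to the threshold (149 ± 2.97 normalized CPM under diclofenac and 139 ± 5.65 under vehicle, log2 fold change 0.11, edgeR adjusted p = 0.0448) and lost its call in 8 of 15 alternatives, among them without diclofenac replicate 2 or 4 or vehicle replicate 1 or 2 (adjusted p = 0.0903, 0.0878, 0.165 and 0.207).

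SLC30A4, an exporter into endosomes and lysosomes, had 11.8, 10.1, 11.6 and 9.47 normalized CPM under diclofenac and 8.37, 10.0 and 7.69 under vehicle. One diclofenac library lay within the vehicle range, and the log2 fold change was 0.31 (SE 0.103, edgeR adjusted p = 0.0162), lost without vehicle replicate 1 (adjusted p = 0.0664) or vehicle replicate 3 (adjusted p = 0.111). SLC30A3, which fills synaptic vesicles with zinc, was not called (9.35 ± 1.02 normalized CPM under diclofenac and 8.24 ± 0.306 under vehicle, edgeR adjusted p = 0.0976), although it was without diclofenac replicate 1 (adjusted p = 0.0380) and by upper-quartile factors (adjusted p = 0.0175). SLC30A10, which in human cells mainly exports manganese, was the lone exporter with a lower call, and a marginal one. Its 4 diclofenac libraries were close together at 3.29, 3.16, 3.24 and 3.49 normalized CPM, while the vehicle libraries were spread at 3.29, 4.19 and 5.10. The log2 fold change was -0.34 (SE 0.142, edgeR adjusted p = 0.0479), and the call was lost in 12 of 15 alternatives. Leaving out any library but vehicle replicate 1 ended it, with adjusted p-values of 0.0577 to 0.318, the last (log2 fold change -0.18) without vehicle replicate 3. SLC30A2 had 4 counts under diclofenac and 0 under vehicle, and SLC30A8, the exporter of insulin granules, 1 count in each group.

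Summed over the 10 exporter rows, the level was 395, 393, 371 and 387 normalized CPM in the diclofenac libraries, against 331, 323 and 347 in the vehicle libraries. Per length, SLC30A9 and SLC30A5 were the most abundant exporters, at 20.7 ± 0.411 and 17.5 ± 0.83 CPM per kb under diclofenac and 19.2 ± 0.782 and 15.8 ± 0.722 under vehicle. SLC30A6 followed at 9.33 ± 0.610 under diclofenac and 5.96 ± 0.475 under vehicle, and SLC30A1 at 5.55 ± 0.376 and 4.80 ± 0.139 CPM per kb. The share of SLC30A6 in the exporter counts was 13.0% under diclofenac and 9.66% under vehicle. In 5 of 8 tested exporters all diclofenac libraries lay above all vehicle libraries, which held for 29.5% of all tested genes.

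**Figure D3:**
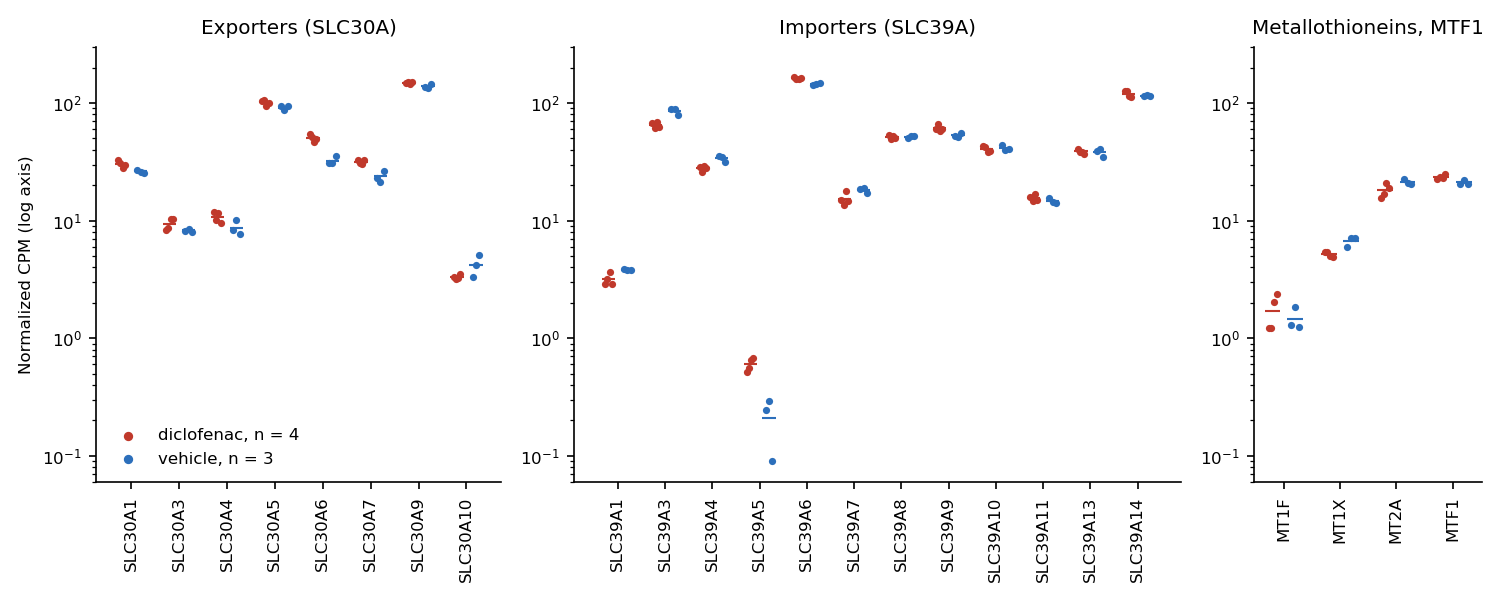
Normalized CPM per library (log axis) of the tested exporters, importers, metallothioneins and MTF1, with diclofenac (4 points, red) left of vehicle (3 points, blue) and a line at each mean. SLC30A6 and SLC30A7 lie higher and SLC39A3 and SLC39A4 lower under diclofenac with no overlap, and MT1F is spread within the diclofenac group.

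The importers split by gene. SLC39A3, a plasma membrane importer, had 67.5, 61.6, 68.9 and 63.0 normalized CPM in the diclofenac libraries, against 88.5, 89.7 and 79.3 in the vehicle libraries, with a clear gap between the groups. SLC39A3 fell by 0.40 on the log2 scale (SE 0.0539, edgeR adjusted p = 5.76e-06) and did so in all 15 alternatives. SLC39A4, the main importer of dietary zinc in the intestine, had 28.6, 26.0, 28.9 and 28.1 normalized CPM under diclofenac and 35.5, 34.6 and 31.8 under vehicle. The groups did not overlap, and SLC39A4 fell by 0.28 on the log2 scale (SE 0.0580, edgeR adjusted p = 0.000394), which was lost by total counts alone (log2 fold change -0.10, adjusted p = 0.134).

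SLC39A7, which releases zinc from the endoplasmic reticulum, had 14.8, 13.7, 18.0 and 14.7 normalized CPM in the diclofenac libraries, against 18.4, 18.9 and 17.2 in the vehicle libraries. Diclofenac replicate 3 lay within the vehicle range. SLC39A7 fell by 0.25 on the log2 scale (SE 0.0834, edgeR adjusted p = 0.0173), a call lost in 5 of 15 alternatives, among them total counts alone (log2 fold change -0.06, adjusted p = 0.501), without diclofenac replicate 2 (adjusted p = 0.0683) and without vehicle replicate 2 (adjusted p = 0.0670). SLC39A1, a widely expressed plasma membrane importer, was below the vehicle libraries in all 4 diclofenac libraries (3.16 ± 0.344 against 3.83 ± 0.0587 normalized CPM) but did not pass the test (log2 fold change -0.28, SE 0.126, edgeR adjusted p = 0.0685), and was called lower without diclofenac replicate 3 (adjusted p = 0.0301). Its level may be undercounted: 60.8% of its exon bases are shared on the same strand with AL358472.7 in GENCODE 29, a row with 6 counts over the diclofenac and 0 over the vehicle libraries. The annotation behind the counting is unknown here.

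Higher calls were made for SLC39A6, SLC39A9 and SLC39A5. SLC39A6, which pairs with SLC39A10 for zinc uptake at the cell surface, had 165, 161, 160 and 163 normalized CPM under diclofenac and 143, 145 and 149 under vehicle. The groups did not overlap and the rise was small (log2 fold change 0.16, SE 0.0414, edgeR adjusted p = 0.00343). Its partner SLC39A10 showed overlapping groups, at 43.0, 42.5, 38.2 and 39.4 normalized CPM under diclofenac and 44.2, 39.7 and 40.7 under vehicle, and was not called (log2 fold change -0.03, SE 0.0568, edgeR adjusted p = 0.673), although by total counts alone it was called higher (log2 fold change 0.15, adjusted p = 0.0391). SLC39A9, a transporter of the Golgi and cell surface, had 59.7, 65.8, 57.3 and 60.3 normalized CPM under diclofenac and 52.4, 51.0 and 55.7 under vehicle, a rise of 0.20 on the log2 scale (SE 0.0534, edgeR adjusted p = 0.00416).

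SLC39A5, an importer known from intestine, pancreas and liver, had the largest fold change of the tested members and the fewest counts. It had 11, 14, 17 and 17 counts in the diclofenac libraries, against 6, 6 and 2 in the vehicle libraries. In normalized CPM these were 0.516, 0.553, 0.656 and 0.682 under diclofenac and 0.244, 0.292 and 0.0894 under vehicle. The groups did not overlap (log2 fold change 1.52, SE 0.371, edgeR adjusted p = 0.00181), with log2 fold changes of 1.16 to 1.79 over 14 alternatives. Weak genes that passed the filter also had higher fold changes. Among 2583 tested genes with a mean under 0 log2 CPM, like SLC39A5, the median log2 fold change was 0.41. Of these, 33.7% were called higher and 3.91% lower. The filter may favor weak genes that are high under diclofenac, the larger group, and its part in this skew was not tested. SLC39A5 passed the filter through its diclofenac counts.

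The other importers were not called. SLC39A8, which carries zinc and manganese, stood at 51.2 ± 1.78 normalized CPM under diclofenac and 51.9 ± 1.28 under vehicle (log2 fold change -0.02, SE 0.0474), and SLC39A14, which also carries iron and manganese, at 120 ± 6.92 and 116 ± 1.93 (log2 fold change 0.05, SE 0.0483). SLC39A13, a transporter of Golgi and vesicles, had a log2 fold change of 0.02 (SE 0.0580) and SLC39A11 of 0.09 (SE 0.0741). By total counts alone SLC39A8, SLC39A11, SLC39A13 and SLC39A14 were all called higher, with log2 fold changes of 0.16, 0.27, 0.20 and 0.23, and SLC39A11 and SLC39A14 also by upper-quartile factors (0.17 and 0.14). SLC39A2 had 9 counts under diclofenac and 1 under vehicle. Per TMM-scaled library size its rate was 6.24 times as high (exact Poisson 95% limits 0.864 and 273, for counting error). SLC39A12, known from brain, had 0 counts under diclofenac and 2 under vehicle.

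Summed over the 14 importer rows the groups overlapped, at 619, 603, 598 and 588 normalized CPM in the diclofenac libraries and 607, 609 and 593 in the vehicle libraries. Per length, SLC39A6 led the importers at 44.1 ± 0.689 CPM per kb under diclofenac and 39.5 ± 0.886 under vehicle. SLC39A14 followed at 17.3 ± 0.996 under diclofenac and 16.7 ± 0.278 under vehicle, and SLC39A3 at 14.3 ± 0.771 and 18.9 ± 1.25 CPM per kb. These 2 stood in opposite order in the groups: SLC39A14 was above SLC39A3 under diclofenac and below it under vehicle. SLC39A9, SLC39A13 and SLC39A8 lay together at 8.52 ± 0.501, 8.46 ± 0.308 and 7.90 ± 0.275 CPM per kb under diclofenac, within about their spread.

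**Figure D4:**
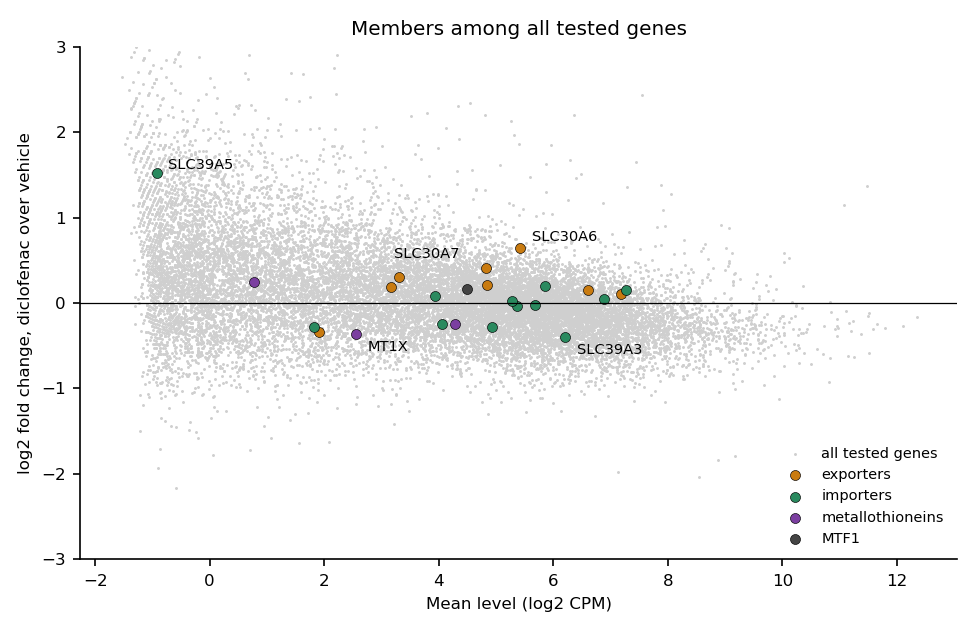
Log2 fold change (diclofenac over vehicle, vertical axis) against mean level (log2 CPM, horizontal axis) of all 18311 tested genes (grey) with the members in color; 46 genes lie beyond the axis limit of 3. SLC39A5 lies in the weak range where many genes are above 0, while SLC30A6 at 0.64 lies above most genes of its level.

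Fold changes varied with level in these libraries, so the members were set beside genes of like level. Among 5110 tested genes with a mean of 4 to 6 log2 CPM, where SLC30A1, SLC30A6, SLC30A7, SLC39A4, SLC39A7 and MT2A lie, the median log2 fold change was -0.02. Of these, 31.1% were called higher and 35.0% lower. Among 3433 genes of 6 to 8 log2 CPM, where SLC30A5, SLC30A9, SLC39A3, SLC39A6 and SLC39A14 lie, the median was -0.17, with 15.9% called higher and 57.5% lower. The fall of SLC39A3 has the direction of most called genes of its level, and the rises of SLC30A5, SLC30A9 and SLC39A6 have the opposite one. In the range of 2 to 4 log2 CPM, where MT1X lies, 39.6% were called higher and 20.9% lower.

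A list of 32 other gene symbols of zinc and copper handling had 29 rows, of which 24 were tested. Of the tested rows 2 were called higher and 10 lower (median log2 fold change -0.13). Over all tested genes 30.2% were called higher, 29.5% lower and 59.7% either way, so the 12 called of 24 are no more than that background. SCO2, which delivers copper to cytochrome oxidase, had 3.05, 1.90, 1.62 and 2.45 normalized CPM in the diclofenac libraries, against 7.35, 6.96 and 6.39 in the vehicle libraries. SCO2 fell by 1.63 on the log2 scale (SE 0.153, edgeR adjusted p = 6.56e-08), the largest change in the list. ATP7B, a copper-exporting ATPase, had 17.2, 17.0, 13.1 and 14.9 normalized CPM under diclofenac and 25.6, 25.1 and 24.3 under vehicle, and fell by 0.69 (SE 0.0791, edgeR adjusted p = 8.00e-07). The other copper ATPase, ATP7A, was one of the 2 that rose (19.3 ± 0.487 normalized CPM under diclofenac and 15.1 ± 2.14 under vehicle, log2 fold change 0.35, edgeR adjusted p = 0.00117). The second was TRPM7, a channel for magnesium and zinc, with a log2 fold change of 0.17.

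The copper and zinc enzyme SOD1 had 417, 442, 538 and 479 normalized CPM in the diclofenac libraries, against 691, 678 and 653 in the vehicle libraries, and fell by 0.52 on the log2 scale (SE 0.0662, edgeR adjusted p = 2.54e-06). The copper chaperone ATOX1, which hands copper to the ATPases, fell by 0.52 (SE 0.0679), and SCO1 and COX11, which serve cytochrome oxidase, fell by 0.43 (SE 0.0476) and 0.40 (SE 0.0490). SCO2, ATP7B, SOD1, ATOX1, SCO1 and COX11 kept their lower calls in all 15 alternatives. Lower calls were frequent at the level of some of them: 57.5% of genes of 6 to 8 log2 CPM, where SCO1 and COX11 lie, and 74.4% of those of 8 or more, where SOD1 lies, were called lower, against 20.9% of those of 2 to 4, where SCO2 lies. The copper importer SLC31A1 was not called, at 92.6 ± 3.92 normalized CPM under diclofenac and 89.7 ± 0.622 under vehicle (log2 fold change 0.04, SE 0.0452). The zinc exporter TMEM163 was not called either (log2 fold change 0.10, SE 0.123). Of the 5 CBWD rows, which are near-identical copies of a gene for a zinc chaperone, CBWD1 and CBWD2 fell by 0.20 and 0.15, and their counts may be split among the copies.

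Directions near 0 depended on how the libraries were scaled. With total counts alone as the scale, the median over all tested genes was higher by 0.181 in log2. On that scale 7 exporters rose and none fell, 8 importers rose and 1, SLC39A3, fell, and neither MT2A nor MT1X passed the test, against 6 and 1 exporters, 3 and 3 importers and 2 metallothioneins with TMM factors. SLC30A1, SLC30A4, SLC30A5, SLC30A6, SLC30A7, SLC39A3, SLC39A5, SLC39A6, SLC39A9 and MTF1 kept their calls under every scaling tried.

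**Figure D5:**
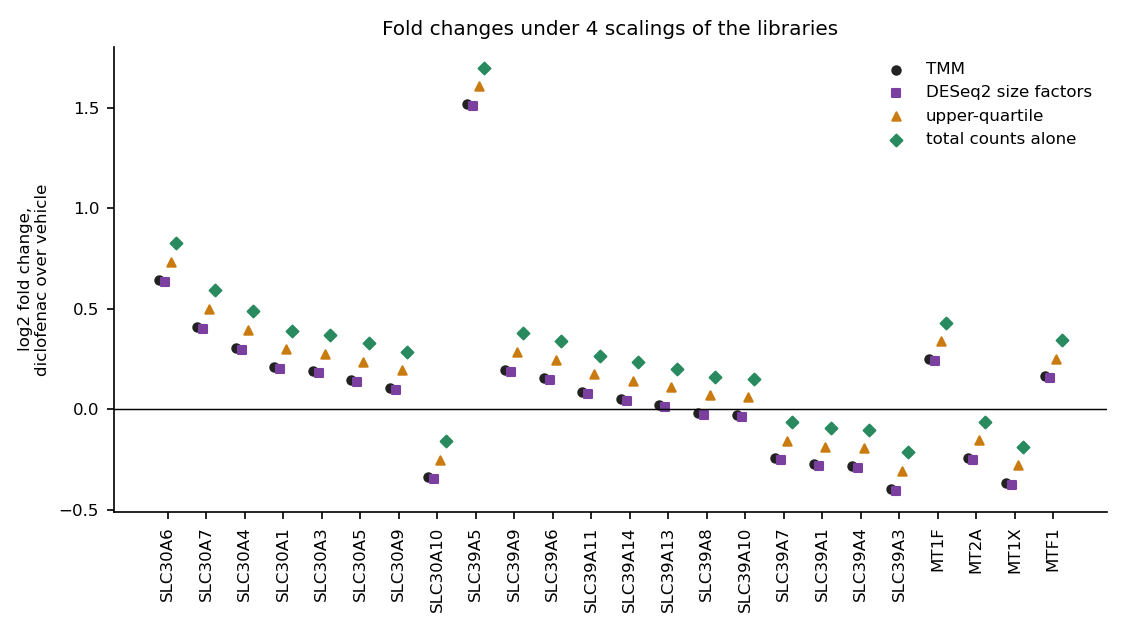
Log2 fold change (diclofenac over vehicle, vertical axis) of the 24 tested members under TMM, DESeq2, upper-quartile and total-count scaling. Total counts alone place every member higher, so that SLC39A8 and SLC39A10 change sign, as they also do with upper-quartile factors, and MT2A lies at -0.06.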

How the data were processed

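RNA was measured in 4 diclofenac and 3 vehicle libraries. The authors deposited raw counts per gene symbol, whole numbers without normalization. Per the labels' protocols, libraries were made with a directional kit; the submitters' processing notes name DESeq and the mouse build GRCm38, while the rows carry human symbols, and the aligner, counter and strand setting are not given in the sources used here. No coordinates of counted genes are therefore given; promoter coordinates are RefSeq's (GRCh38.p14), and GENCODE 29 served for exon lengths, overlaps and shared 50-base stretches.

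Genes were filtered with filterByExpr (minimum count 10, minimum total 15), leaving 18311 genes with 99.9% of counts, scaled by TMM and tested with edgeR 4.0.16 (quasi-likelihood F test, group as the only term, Benjamini-Hochberg over all tested genes, called at 0.05) in R 4.3.3. SEs were derived from the F statistic. The fit was tested on simulated counts with known changes. Levels per length are normalized CPM per kb of merged exons. Alternatives were other scalings, DESeq2 1.42.0, limma 3.58.1 with trend, other filters, a 1.5-fold minimum, leaving out each library, and a replicate block. The members and lists were chosen with earlier results of these data known. Values in every library are given for MTF1, the tested metallothioneins, SLC30A1, SLC39A10, up to 5 called exporters and up to 7 called importers with the largest changes, and the 6 largest called changes of the zinc and copper list are named; other names were added after their values were seen. Intervals and floors cover counting error only.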

Additional observations from a re-analysis of the deposited data

How the results depend on the processing

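Of the 16 members called, SLC30A6 and SLC39A5 alone kept their call when a change of at least 1.5-fold was required. Without that requirement, 7 kept it in every other alternative that could be fitted (SLC30A1, SLC30A6, SLC30A7, SLC39A3, SLC39A5, SLC39A6 and SLC39A9) and 9 lost it in at least 1. By total counts alone, 8635 genes were higher and 3029 lower, 8 importers were higher and 1 lower, no exporter and no metallothionein was lower (against 7 exporters higher), and 7 genes of the zinc and copper list were higher and 6 lower; SLC39A8 and SLC39A10 turned to log2 fold changes of 0.16 and 0.15. Upper-quartile factors gave 5 importers higher, 0 exporters lower, 1 metallothionein lower, and 5 and 6 genes of the list. A 1.5-fold minimum left 2487 and 1088 genes, 1 exporter and 1 importer higher, 0 exporters, 0 importers and 0 metallothioneins lower, and 0 higher and 2 lower in the list. The lower exporter, SLC30A10, was also lost (0 called) with DESeq2's Wald test, limma and the 1 CPM filter, and leaving out each library gave 0 to 1 exporters and 1 to 2 metallothioneins lower. The count of higher exporters, 6 in the main fit, was 4 with no filter and without vehicle replicate 1 or vehicle replicate 2. It was 5 with DESeq2's Wald test or the replicate block, and 7 without diclofenac replicate 1. With the replicate block, 0 exporters were lower, 4915 genes were higher and 5003 lower; MTF1, SLC30A9, SLC30A10 and SLC39A7 lost their calls (log2 fold changes 0.13, 0.10, -0.37 and -0.23). Same-numbered libraries did not deviate together (correlations 0.000867, 0.0216 and -0.0474), so the numbers were not taken as pairs. SLC39A5 could not be tested with the 1 CPM filter. It passed the main filter through its diclofenac counts, so its kept calls are weak evidence. At these depths, 1 count was worth 0.0377 to 0.0503 CPM, which limits what can be said of the rows at 0. The causes of these shifts were not tested.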
